A study of Mus musculus with 6 samples.

Results

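The nuclear genes of the mitochondrial respiratory chain were examined in mouse hindlimb buds with and without Pitx1, a transcription factor of hindlimb identity. The genes were chosen by name: those whose platform symbol begins with Nduf, Uqcr, Atp5, Cox4, Cox5, Cox6, Cox7 or Cox8, or is Sdha, Sdhb, Sdhc or Sdhd. The rule found 85 of the 16593 named genes on the array. They comprise 76 subunits of the 5 complexes (33 of complex I, 3 of complex II, 8 of complex III, 16 of complex IV and 16 of complex V), 3 muscle isoforms of complex IV (Cox6a2, Cox7a1 and Cox8b), 5 assembly factors of complex I and 1 pseudogene. Sdha and the genes of mitochondrial DNA were not analysed here. Buds came from E12.5 embryos (embryonic stage) of matings between heterozygous carriers, in the strain labelled SV129. Of the 6 samples, 3 were wild type (PITX1+/+) and 3 knockout (PITX1-/-), and each was hybridised to its own Illumina bead array. Which exons were deleted and whether embryos were pooled is not stated in the labels. All p-values measure only the spread between these samples, which may be technical.

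The respiratory chain passes electrons from NADH (complex I) and succinate (complex II) through complex III to oxygen at complex IV, and complexes I, III and IV pump protons that drive ATP synthase (complex V). Apart from complex II, each complex joins a few proteins made from mitochondrial DNA to many nuclear-encoded subunits. Most nuclear subunits are made in every respiring cell, while a few positions of complex IV are filled by tissue isoforms, among them heart and skeletal muscle forms. NRF1, GABPA and YY1 are transcription factors known for driving nuclear respiratory chain genes, and MEF2 and myogenic factors that bind E-boxes are known for muscle genes.

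Letters known from these factors were counted in promoter sequence. RefSeq promoter windows of 300 bases (GRCm38.p6, spanning the transcription start) were held for 63 of the 76 subunits and for Cox7a1 and Cox8b. Both strands were searched. The NRF1 letters, GCGCA and GCGC with any 1 base between, occurred in 14 of the 63 subunit promoters (22.2%), against 5.19% of the 27025 genes with a window. GABPA's CCGGAAG occurred in 16 (25.4%, against 9.93%) and YY1's AAGATGGCG in 7 (11.1%, against 1.64%). The E-box CAGCTG went the other way, with 4 subunits (6.35%) against 18.3% of all genes. A loose form of MEF2's letters, CTA and TAG with any 4 bases between, was in 1 subunit promoter (1.59%, against 4.23%). TAATCC, the core letters bound by the PITX family, was in 5 (7.94%, against 8.14%). These matches describe letters and not bound sites.

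Windows of the complex IV isoforms Cox6a1, Cox8a, Cox8b and Cox7a1 are printed as examples, each 5′ to 3′ along its gene. Matches to any of the 6 motifs are in capitals. The window of Cox7a2, the widely expressed counterpart of Cox7a1, is not printed and also carried none of the 6. No capital stretch covers overlapping motifs. Cox6a1 (chr5:115348909-115349208, minus strand) carries 2 NRF1 matches and 1 GABPA match, and Cox8a (chr19:7217567-7217866, minus strand) carries 2 GABPA matches. Cox8b (chr7:140900397-140900696, minus strand) carries 2 E-boxes, and Cox7a1 (chr7:30183921-30184220, plus strand) carries none of the 6.
Cox6a1: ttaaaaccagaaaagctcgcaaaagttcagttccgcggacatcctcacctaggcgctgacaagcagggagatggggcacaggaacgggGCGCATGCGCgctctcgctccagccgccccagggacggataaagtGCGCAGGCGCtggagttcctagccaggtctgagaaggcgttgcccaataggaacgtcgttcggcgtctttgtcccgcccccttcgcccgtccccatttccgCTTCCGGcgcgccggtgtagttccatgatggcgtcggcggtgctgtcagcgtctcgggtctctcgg
Cox8a: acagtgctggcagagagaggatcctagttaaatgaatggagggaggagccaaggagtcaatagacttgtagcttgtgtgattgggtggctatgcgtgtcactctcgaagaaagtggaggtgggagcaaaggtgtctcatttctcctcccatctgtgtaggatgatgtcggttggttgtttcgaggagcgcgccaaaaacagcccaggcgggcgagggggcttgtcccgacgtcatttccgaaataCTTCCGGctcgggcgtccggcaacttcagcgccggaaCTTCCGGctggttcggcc
Cox8b: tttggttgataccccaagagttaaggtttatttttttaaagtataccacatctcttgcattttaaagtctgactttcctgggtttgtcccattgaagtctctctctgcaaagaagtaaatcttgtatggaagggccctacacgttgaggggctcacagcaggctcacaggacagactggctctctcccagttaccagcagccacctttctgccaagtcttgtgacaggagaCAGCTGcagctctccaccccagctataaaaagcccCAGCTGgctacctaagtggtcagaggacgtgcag
Cox7a1: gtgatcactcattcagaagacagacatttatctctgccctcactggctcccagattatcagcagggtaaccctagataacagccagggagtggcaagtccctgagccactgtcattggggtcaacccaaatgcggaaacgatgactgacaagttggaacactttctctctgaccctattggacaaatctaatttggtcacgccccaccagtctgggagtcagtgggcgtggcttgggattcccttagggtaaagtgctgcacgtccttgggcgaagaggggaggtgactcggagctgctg

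Each probe gave an intensity in arbitrary units, normalized by the authors, and background ended at 14.3 units. Pitx1 itself lay between 125 and 154 units in wild type and between 75.2 and 78.3 in knockout, so the targeted gene's signal went with the labels. Brown fat markers (5 of 5) and heart markers (6 of 6) lay below background on every array, as did the forelimb gene Tbx5, while 7 of 7 limb mesenchyme markers on the array were tested. Of the 85 respiratory chain genes, 74 had a probe above background on at least 3 arrays and were tested, 71 of them above background on all 6. Most lay far above background, with 55 of the 74 averaging over 1000 units (74.3%, against 23.3% of the 9535 genes tested). Not tested were Ndufab1, Ndufb4, Ndufs1, Sdhd, Uqcrfs1, Uqcrq, Cox7b, Cox7b2, Cox8c, Atp5k and Cox8b. Several of these, such as Ndufs1 and Uqcrfs1, encode catalytic subunits that every respiring cell needs, so a dim probe here does not show a silent gene. Apart from the share over 1000 units and the choice of probes and genes by highest mean, levels of different probes were not compared.

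Across the 5 complexes, no respiratory chain gene passed the threshold in either direction. Genotypes were compared with limma, knockout minus wild type, with Benjamini-Hochberg adjustment over all 13715 probes. Of the 74 genes tested, 0 had an adjusted p under 0.05, where 0.273% of all genes tested did, and the lowest adjusted p was 0.16, for Cox6a2. At an unadjusted p under 0.05 in limma there were 6 (8.11%, against 8.51% of all genes), of which 2 were lower (4.86% of all genes) and 4 higher (3.65%). The genotypes did not overlap for 11 (14.9%, against 13.8%), of which 2 were lower in knockout (7.32% of all genes) and 9 higher (6.51%). Both shares lie near those of the whole array and are not a result about these genes.

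The fold changes were also small. Log2 fold changes ran from -0.37 (Cox6a2) to 0.35 (Sdhb), while those of all genes tested ran from -2.05 to 1.23. Of the 74, 67 lay within 0.2 of 0 (90.5%, against 87.7% of all genes). The 95% interval from limma stayed within 0.5 of 0 on the log2 scale for 69 genes (93.2%, against 93.4%) and within 1 for all 74. The 5 genes whose intervals reached beyond 0.5 were Cox6a2, Sdhb, Atp5g2, Atp5h and Cox6c. The count of 0 genes past the threshold held with each array left out and under every other alternative tried, although over all probes the count of calls moved between 0 and 91 with single arrays left out.

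**Figure D1:**
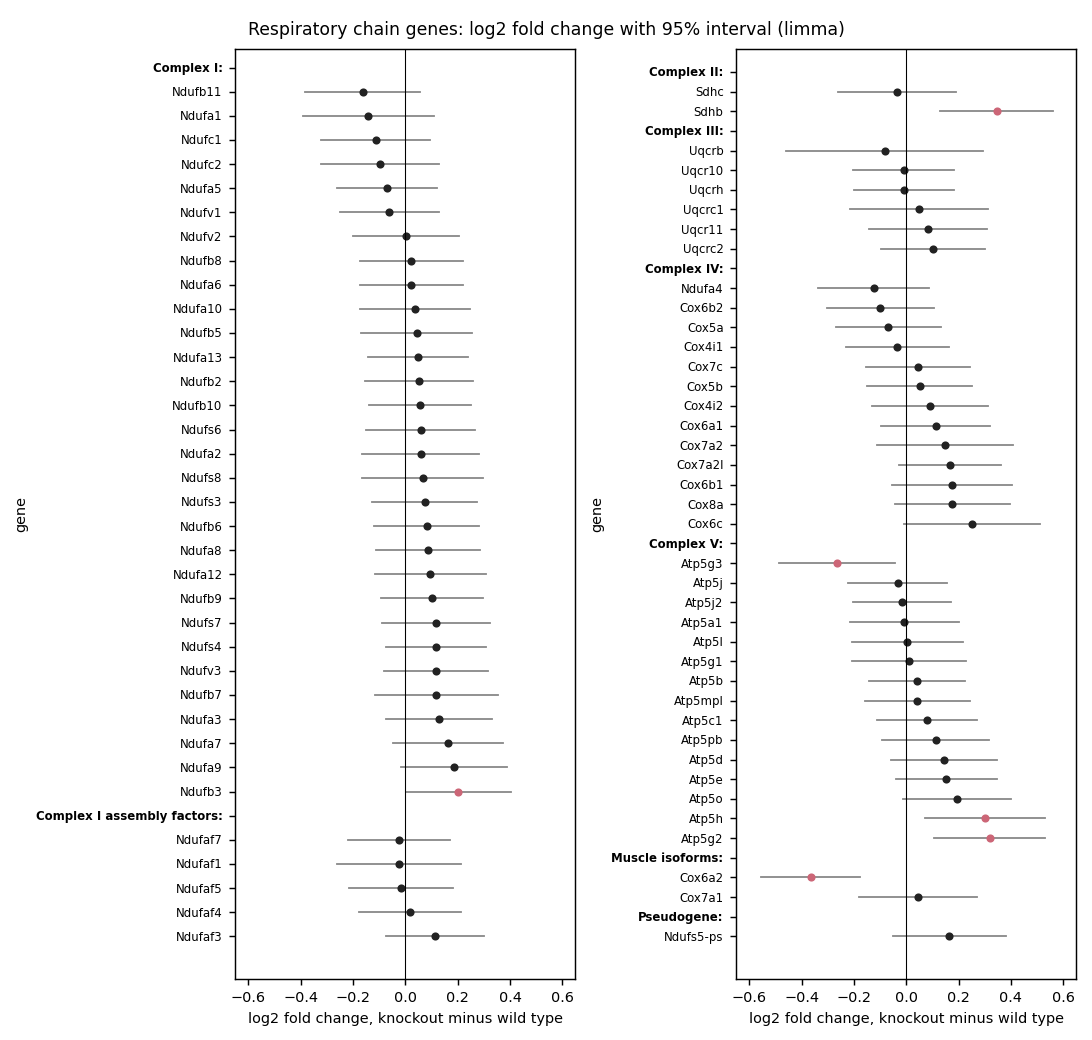
Log2 fold change (knockout minus wild type, x axis) with its 95% interval for each of the 74 respiratory chain genes tested (y axis), by complex; red points have an unadjusted p under 0.05 in limma and none passed after adjustment. Points lie between -0.37 (Cox6a2) and 0.35 (Sdhb).

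**Figure D2:**
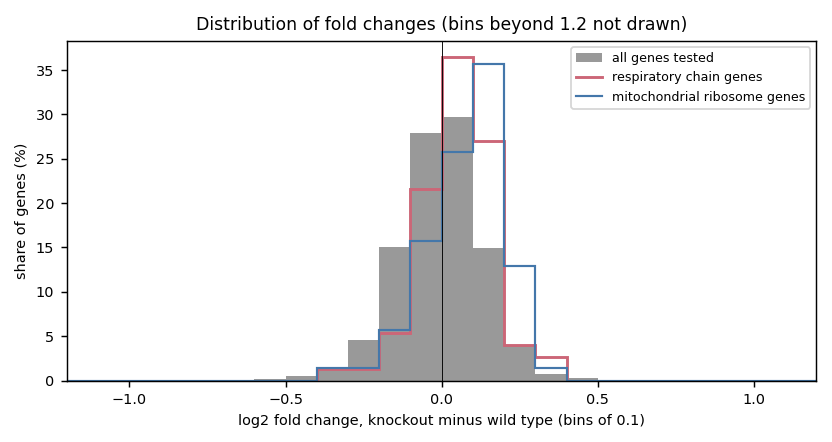
Share of genes in percent (y axis) by log2 fold change in bins of 0.1 (x axis) for 74 respiratory chain genes (red), 70 mitochondrial ribosome genes (blue) and the 9535 genes tested (grey). The medians are 0.05, 0.10 and -0.00.

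Complex I, the NADH dehydrogenase, is the largest of the complexes. Of its 33 subunit genes 30 were tested, 24 had a log2 fold change above 0, and the median was 0.06 (range -0.16 to 0.20). The 5 core subunits tested, part of the catalytic core that bears the flavin and iron-sulfur clusters, had a median of 0.07, and the 25 supernumerary subunits 0.06. All 30 intervals stayed within 0.5 of 0.

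Ndufb3, a supernumerary subunit of the membrane arm, had the smallest p in complex I. It read 2700, 2647 and 2616 units in wild-type replicates 1 to 3 and 2846, 2997 and 3372 in knockout replicates 1 to 3. All knockout arrays lay above all wild-type arrays, with knockout replicate 3 the highest, and the log2 fold change of 0.20 ± 0.09 (SE, n = 3 each; limma adjusted p = 0.62) missed the threshold. Ndufa9, a subunit at the junction of the arms, also did not overlap between genotypes, with means of 8401 ± 355 (wild type) and 9583 ± 780 units (knockout; mean ± SD of 3 arrays each; log2 fold change 0.19 ± 0.09 SE, limma adjusted p = 0.65). Ndufb11, an X-linked membrane arm subunit, was the lowest of the complex at -0.16 ± 0.10 (limma adjusted p = 0.71), with 64.4 to 90.1 units on wild-type and 48.3 to 73.2 on knockout arrays. Ndufs6 and Ndufa13, supernumerary subunits, gave 0.06 ± 0.10 and 0.05 ± 0.09 (limma adjusted p = 0.90 for both). Ndufa7 gave 0.16 ± 0.10 (limma adjusted p = 0.69).

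Ndufs4, named after its values were seen, is the complex I subunit with the most probes. Its 4 probes gave log2 fold changes of 0.12 to 0.23, all above 0. Of the 11 members with several tested probes, 7 kept 1 sign over their probes, and Ndufb6, Ndufv3, Uqcr10 and Atp5j did not. For Ndufb6 the log2 fold changes were 0.08 and -0.19. The 5 assembly factors of complex I named Ndufaf had fold changes between -0.02 and 0.11. The highest was Ndufaf3, named after its values were seen, at 58.4 ± 2.1 units in wild type and 69.1 ± 6.4 in knockout (limma adjusted p = 0.76). The pseudogene Ndufs5-ps gave 0.16, and since probe sequences were not used, its signal may hold that of Ndufs5.

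Complex II, succinate dehydrogenase, links the TCA cycle to the chain and is wholly nuclear-encoded. Sdhb, its iron-sulfur subunit, had the largest positive fold change of all members. It read 1135, 1249 and 1019 units in wild-type replicates 1 to 3 and 1413, 1381 and 1581 in knockout replicates 1 to 3. Every knockout array lay above every wild-type array, and the log2 fold change was 0.35 ± 0.10 (SE, n = 3 each; 95% interval 0.13 to 0.56), which missed the threshold (limma adjusted p = 0.32). A second Sdhb probe gave 0.24 ± 0.10 (limma adjusted p = 0.57), also without overlap, and the third was above background on 1 array. Sdhc, a membrane anchor of the same complex, overlapped between genotypes at 4997 ± 116 and 4900 ± 635 units (mean ± SD of 3 arrays each; log2 fold change -0.04 ± 0.10). The other anchor, Sdhd, was above background on 2 arrays.

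Complex III carries electrons from ubiquinol to cytochrome c. The 6 genes tested of 8 ran from -0.08 to 0.10, with a median of 0.02. The genotypes overlapped for all 6, where 13.8% of all genes tested did not overlap. Uqcrc2, a core protein, gave 0.10 ± 0.09 (SE; limma adjusted p = 0.80), and its partner Uqcrc1 gave 0.05 ± 0.12. Uqcr11 gave 0.08 ± 0.10. Uqcr10 and Uqcrh gave -0.01 ± 0.09 each. Uqcrb had the widest interval of the members, from -0.46 to 0.29, with 259 to 400 units on wild-type arrays and 229 to 453 on knockout arrays.

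Complex IV, cytochrome c oxidase, reduces oxygen. Apart from the muscle isoforms, 13 of its 16 genes were tested and had a median log2 fold change of 0.09 (range -0.12 to 0.25), counting tissue isoforms such as Cox4i2, the supercomplex factor Cox7a2l and Ndufa4, now assigned to this complex. Cox6c, a small membrane subunit, had the smallest p among them. It read 1248, 1019 and 830 units in wild-type replicates 1 to 3 and 1207, 1252 and 1224 in knockout replicates 1 to 3. The knockout arrays lay close together and the wild-type arrays apart, so the genotypes overlapped (log2 fold change 0.25 ± 0.12 SE, limma adjusted p = 0.62). Cox6b1 gave 0.18 ± 0.11, from 18563 ± 748 to 21097 ± 2843 units, and Cox5b gave 0.05 ± 0.09. Cox7a2l, a factor that joins complexes III and IV into supercomplexes, was 3116 ± 128 units in wild type and 3511 ± 216 in knockout without overlap (0.17 ± 0.09, adjusted p = 0.67).

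Cox4i1 and Cox4i2 fill the same position of complex IV, the first in most tissues and the second known from lung and from responses to low oxygen. Cox4i1 gave 12753 ± 429 and 12470 ± 872 units (mean ± SD of 3 arrays each; log2 fold change -0.03 ± 0.09 SE). Cox4i2 gave 61.9 ± 15.3 and 69.9 ± 8.2 units (0.09 ± 0.10). Their 95% intervals, -0.23 to 0.16 and -0.13 to 0.31, overlap broadly.

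Of the muscle isoforms, Cox6a2 and Cox8b read lower on every knockout array than on any wild-type array, as did 7.32% of all genes tested, and Cox7a1 overlapped. For Cox8b, wild-type replicate 3 and all knockout arrays lay below background. Cox6a2, the heart and skeletal muscle form of subunit 6a, had the lowest fold change and the smallest p of all members. It read 32.6, 35.4 and 26.6 units in wild-type replicates 1 to 3 and 5.66, 9.41 and 9.59 in knockout replicates 1 to 3. All wild-type arrays lay above background and all knockout arrays below it, and the gene entered the test through wild type alone. Against the background level the knockout intensity was at least 2.19-fold lower, while the log2 fold change, which the added offset of 50 units shrinks, was -0.37 ± 0.09 (SE; 95% interval -0.55 to -0.18) and did not pass (limma adjusted p = 0.16, and 0.074 to 0.62 over the alternatives). In bulk tissue fewer muscle cells and less of the transcript per cell cannot be told apart.

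Cox8b, the muscle form of subunit 8, read 26.3, 20.1 and 8.85 units in wild-type replicates 1 to 3 and 3.07, -1.74 and -11.0 in knockout replicates 1 to 3. The genotypes did not overlap, but 2 wild-type arrays and 0 knockout arrays were above background, so it was not tested. Cox7a1, the muscle form of subunit 7a, was above background on every array. It read 75.1, 65.5 and 88.7 units in wild type and 73.6, 69.2 and 101 in knockout, so that the genotypes overlapped (log2 fold change 0.04 ± 0.10 SE; 95% interval -0.18 to 0.27).

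The widely expressed counterparts Cox6a1, Cox7a2 and Cox8a had log2 fold changes of 0.11 ± 0.10, 0.15 ± 0.12 and 0.18 ± 0.10 (SE), with overlapping genotypes for each on the probe used. A second Cox6a1 probe gave 0.18 ± 0.09 (SE, limma adjusted p = 0.66) and was higher in knockout without overlap. No exact difference is given for Cox6a2 against Cox6a1, since Cox6a2 was below background on all knockout arrays. For log2 Cox7a1 minus log2 Cox7a2 within arrays, the genotypes differed by -0.10 (knockout minus wild type), less than the spread between arrays (exact permutation p = 0.6, where 3 against 3 cannot go below 0.1).

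Skeletal muscle markers, like Cox6a2, were lower in knockout. Of 19 listed, 17 were tested, 8 fell and 0 rose (limma), where 0.22% of all genes tested fell, with a median log2 fold change of -1.02. That count of 8 was 0, 1 and 0 without wild-type replicates 1, 2 and 3 and 9 to 14 without a knockout array, alternatives chosen after seeing the data. Their summed intensity was 16099 to 20109 units in wild type and 2657 to 9001 in knockout, and Ckm was below background on every array. Of the 17 tested, 16 were lower in knockout without overlap (7.32% of all genes tested were). Myod1, named after its values were seen, overlapped between genotypes (log2 fold change -0.09 ± 0.14 SE, limma adjusted p = 0.89). Acta1, skeletal alpha-actin, fell (399 to 586 units on wild-type arrays, 7.95 to 163 on knockout arrays; log2 fold change -1.91 ± 0.28 SE, limma adjusted p = 0.017), a call that was lost when any wild-type array was left out (adjusted p 0.060 to 0.13). The muscle list was lowest in knockout replicate 3 (-1.68, against -0.69 and -0.90 in replicates 1 and 2). Cox6a2 was below background on every knockout array, so its order among them was not compared with that of the list. The part of muscle content in the Cox6a2 values was not tested.

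**Figure D3:**
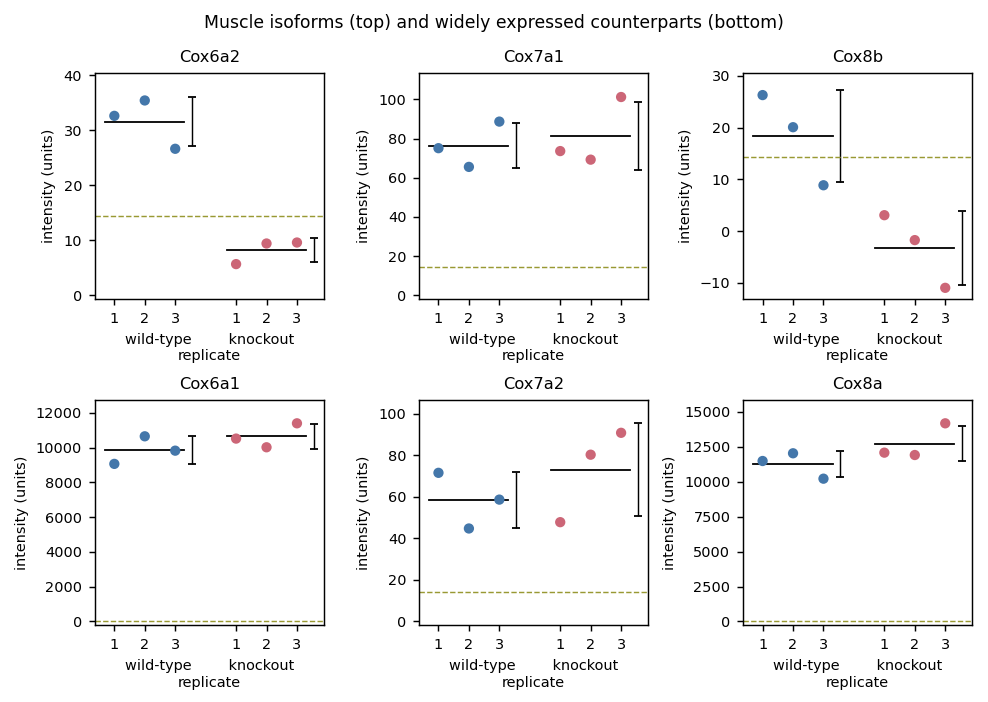
Intensity in units (y axis) on each of the 6 arrays (x axis) for the muscle isoforms Cox6a2, Cox7a1 and Cox8b and their widely expressed counterparts; lines are means, bars SD (n = 3) and the dashed line is the background threshold of 14.3 units. Cox6a2 lies below that line on all 3 knockout arrays, while Cox7a1 overlaps between genotypes.

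Complex V, ATP synthase, held members with low p in both directions. Of 16 genes 15 were tested, 11 had a log2 fold change above 0 and the median was 0.04 (range -0.27 to 0.32). The 5 genes of the F1 head, which makes ATP, had a median of 0.08. Atp5b, its catalytic beta subunit, gave 46986 ± 845 and 48333 ± 917 units (mean ± SD of 3 arrays each; log2 fold change 0.04 ± 0.09 SE), near the array's top value of 62522 units, where a probe may respond less. Atp5e, named after its values were seen, did not overlap (13.1 ± 2.5 and 22.7 ± 6.0 units), but it was above background on 1 wild-type array (log2 fold change 0.15).

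The peripheral stalk, which holds the head still against the rotor, had a median of 0.15 over 4 genes. Atp5h, its subunit d, read 1907, 1842 and 1613 units in wild-type replicates 1 to 3 and 1980, 2175 and 2508 in knockout replicates 1 to 3. The genotypes did not overlap, by a margin of 1980 to 1907 units, and the log2 fold change was 0.30 ± 0.11 (SE, n = 3 each; limma adjusted p = 0.47). Atp5o, the stalk's link to the head, gave 0.19 ± 0.10 (limma adjusted p = 0.64) with overlap.

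Atp5g1, Atp5g2 and Atp5g3 encode the same mature protein, subunit c of the rotor ring, behind different import sequences, and their fold changes ran in opposite directions. Atp5g2 read 2778, 3033 and 2619 units in wild-type replicates 1 to 3 and 3509, 3233 and 3837 in knockout replicates 1 to 3. Atp5g3 read 28040, 27429 and 25611 units in wild type and 24140, 23973 and 19558 in knockout. Neither gene overlapped between genotypes: Atp5g2 was higher in knockout (0.32 ± 0.10 SE, limma adjusted p = 0.36) and Atp5g3 lower (-0.27 ± 0.10, adjusted p = 0.53), both missing the threshold. Atp5g1, named after its values were seen, overlapped at 10824 ± 856 and 10921 ± 1045 units (0.01 ± 0.10). The difference between the paralogs was noticed in these values and was not tested.

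**Figure D4:**
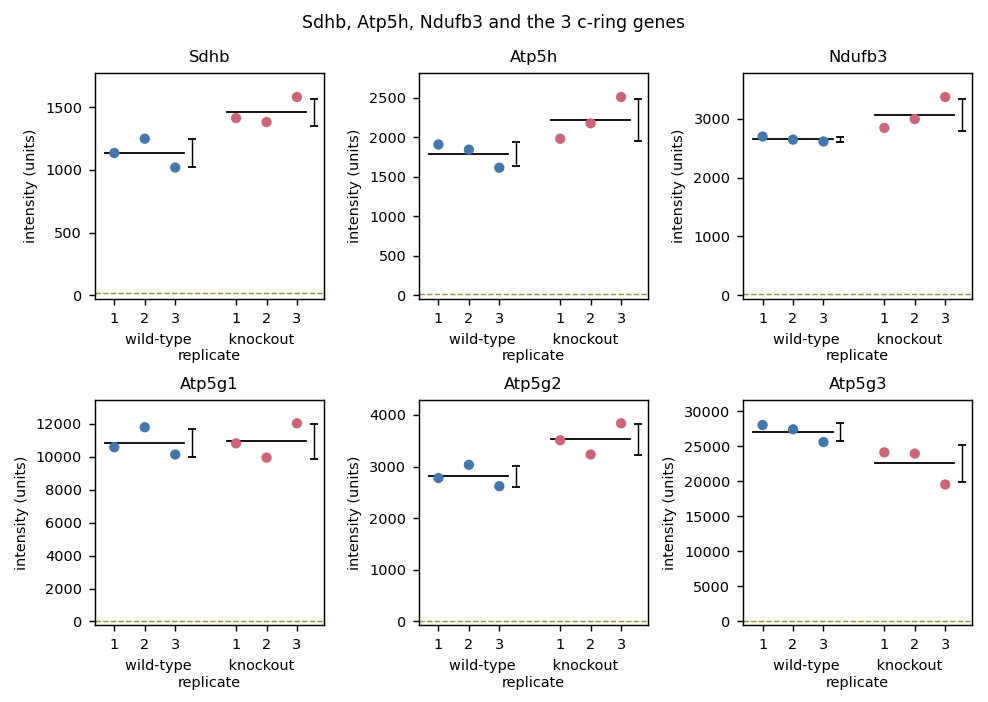
Intensity in units (y axis) on each of the 6 arrays (x axis) for Sdhb, Atp5h, Ndufb3 and the c-ring genes Atp5g1, Atp5g2 and Atp5g3; lines are means, bars SD (n = 3) and the dashed line is the background threshold. Atp5g2 is higher and Atp5g3 lower on all 3 knockout arrays, and Atp5g1 overlaps.

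Across the members, fold changes lay slightly above 0. The median log2 fold change of the 74 members was 0.05 (all genes -0.00), and 52 lay above 0 (70.3%, against 49.8% of all genes). Knockout replicate 3 was the highest of the 6 arrays for 34 members (45.9%, against 25.9%) and the lowest for 9 (12.2%, against 26.8%). Wild-type replicate 3 was the lowest for 32 (43.2%, against 16.3%). The median was 0.02 without wild-type replicate 3 and 0.03 without knockout replicate 3. Knockout replicate 3 also stood apart over all probes, at 22.3 on the first principal component against -8.86 to 1.38 for the other arrays. Mean levels of the subunits relative to wild type were 0.03, 0.05 and 0.10 in knockout replicates 1 to 3 and -0.07 to 0.05 in wild type, so the genotypes overlapped.

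Mitochondrial ribosome genes, which translate the subunits encoded in mitochondrial DNA, were also high in knockout replicate 3 and low in wild-type replicate 3. Limma tested 70 of 76 and called 0, with 8 at an unadjusted p under 0.05 (11.4%, against 8.51% of all genes), of which 1 was lower and 7 higher (10.0%, against 3.65%). Among them 53 lay above 0 and the median was 0.10. Knockout replicate 3 was highest for 54.3% of them and wild-type replicate 3 lowest for 47.1%. Mrpl2 was lower in knockout at -0.33 ± 0.10 (SE, limma adjusted p = 0.33) and Mrps22 higher at 0.29 ± 0.10 (adjusted p = 0.42), both without overlap, and neither passed.

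Other genes around the chain gave no call by limma. The TCA cycle and pyruvate dehydrogenase list had 14 genes tested and a median of 0.04, and its lowest p belonged to Mdh2, mitochondrial malate dehydrogenase (0.20 ± 0.11 SE, limma adjusted p = 0.67). Assembly factors outside the name rule (18 tested, median -0.01), electron carriers and related dehydrogenases (7, -0.01) and carriers and porins (5, 0.01) had no gene with an unadjusted p under 0.05. Nor had the 14 regulators of mitochondrial biogenesis and mitochondrial DNA (median -0.02). Gabpb1, a partner of GABPA, gave 0.20 ± 0.10 (limma adjusted p = 0.63), GABPA's own gene gave 0.13 ± 0.09 and Nrf1 gave -0.12 ± 0.09. Among 16 glycolysis genes, limma gave 1 an unadjusted p below 0.05. That is 6.25% of the list, less than the 8.51% found over all genes tested. The gene was Pgam2, the muscle phosphoglycerate mutase. It read 487 to 577 units on wild-type arrays and 317 to 449 on knockout arrays, without overlap (log2 fold change -0.44 ± 0.11 SE, limma adjusted p = 0.19). Cartilage markers had a median of -0.33 over 6 genes tested of 8. Only 1 of them, the matrix protein gene Matn4, fell (-1.58 ± 0.26 SE, limma adjusted p = 0.022), where 0.22% of all genes tested fell. That call was lost without any single wild-type array. Of the 6 cartilage genes, 2 were lower in knockout without overlap (7.32% of all genes tested were) and the others overlapped. That list was lowest in knockout replicate 3 (-0.74) and highest in wild-type replicate 3 (0.24), the arrays on which members were often highest and lowest, and its part in the subunit levels was not tested. Erythroid markers, whose list median was 0.37 over 12 genes tested, had 1 call higher (limma, where 0.0524% of all genes rose), lost without any single array other than knockout replicate 1, and were highest in knockout replicate 3, and their part in the subunit levels was not tested.

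**Figure D5:**
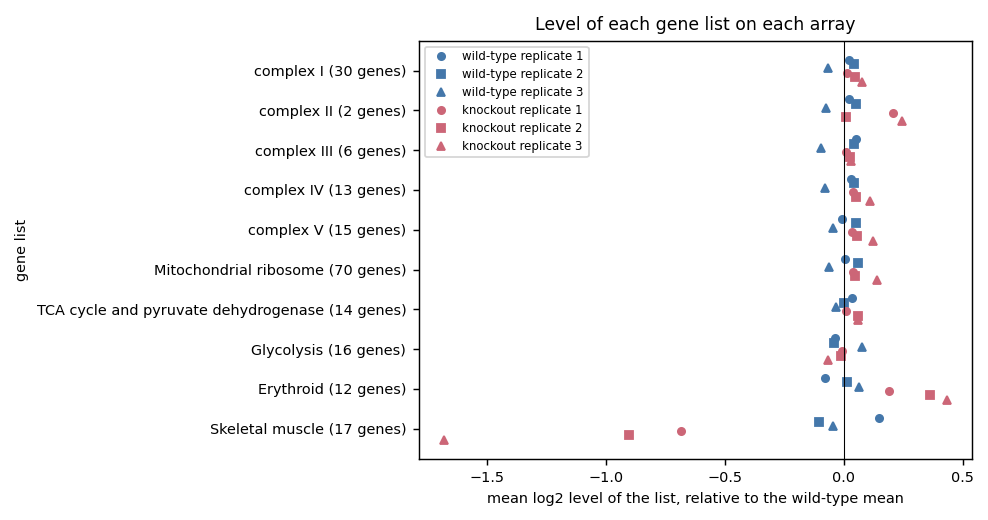
Mean log2 level of each gene list relative to the wild-type mean (x axis) on each array, for the 5 complexes and 5 other lists (y axis); blue marks are wild-type and red marks knockout replicates. Complexes I, III, IV and V lie between -0.09 and 0.12 and complex II (2 genes) between -0.07 and 0.25, while skeletal muscle markers reach -1.68.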

How the data were processed

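RNA from 3 wild-type and 3 knockout hindlimb bud samples was hybridised to Illumina bead arrays. The deposited intensity values were normalized by the authors, and their sorted values were nearly equal across arrays; 27.9% were below 0. The normalization method is not given in the sources used here. A second table of unnormalized values has 12 columns that could not be tied to samples and were not used, so background was set from the values below 0 (threshold 14.3 units). Of 25697 probes, 23978 had 1 gene symbol, 0 several and 1719 none.

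From the deposited intensities, log2 values were computed after normexp with an offset of 50, and 13715 probes above background on at least 3 arrays were tested for genotype with limma 3.58.1 (lmFit, eBayes; R 4.3.3), Benjamini-Hochberg adjusted over all of them at a threshold of 0.05. The probe with the highest mean stood for a gene. Isoform differences (2 pairs computed, 1 reported, because Cox6a2 was below background in knockout) used exact permutation tests (scipy 1.17.1), and figures matplotlib 3.10.9. The limma step was run on simulated data in which each array had the same variance. Knockout replicate 3 stood apart in the real data, so the simulation does not show how the calls hold here. The number of arrays limits the precision. Named genes were Pitx1, the muscle isoforms and their counterparts, Cox4i1, Cox4i2, the Sdh genes, the 4 lowest p and 2 highest means of complexes I, III, IV and V, and up to 3 lowest p of each other list; others are marked as named after their values were seen. The members and lists were chosen with earlier results of these data known. Alternatives changed the background step, offset, normalization, filter, variance model, array weights, probe choice and replicate block, or left out an array.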

Additional observations from a re-analysis of the deposited data

How the results depend on the processing

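By limma, 0 respiratory chain genes passed under each of the 16 alternatives. Of 553 alternative values for 37 named members, 0 passed and 17 had the opposite sign, in 9 genes. Over all probes, 30 passed, against 8 with an offset of 16 and 0 to 91 with 1 array left out (0 without wild-type replicate 3, where 710 probes had an unadjusted p under 0.05). Samples of the same replicate number had correlations of 0.23, 0.17 and -0.07, against -0.34 to 0.12 for different numbers. These values do not settle whether the samples are paired, and with the replicate block 84 probes passed. The complex II median was 0.021 with no filter, where Sdhd enters. With 1 array left out, the complex IV median ran from 0.025 to 0.11 and the complex V median from 0.045 to 0.089. Signs turned, with 1 array left out, for Atp5g1 (-0.059 to 0.077), Cox4i1 (-0.080 to 0.020), Cox4i2 (-0.0078 to 0.15), Cox7a1 (-0.046 to 0.10), Cycs (-0.015 to 0.091), Etfb (-0.0043 to 0.11), Sdhc (-0.11 to 0.072), Uqcr10 (-0.047 to 0.027), Uqcrb (-0.30 to 0.096), Uqcrc1 (-0.063 to 0.20) and Uqcrh (-0.055 to 0.019). With array weights they turned for Atp5g1 (-0.0087), Cycs (-0.0061) and Sdhc (0.016). The cause was not tested. The 3 arrays per genotype limit the precision to the printed intervals.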
